A study of Mus musculus with 4 samples.

Results

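Transcripts of genes that sense and repair DNA damage were compared between Btaf1 mutant (V1330M, written Btaf1-/- by the submitters) and wild-type (Btaf1+/+) mouse embryos. BTAF1 is an ATPase that strips the TATA-binding protein from DNA, and the allele is an ENU-induced point mutation of the germ line, so every tissue of a mutant embryo carries it. The 51 genes were chosen by name. Of these, 50 had a probe under that name in the scanner files, and Mdc1 had none and is not analysed here. Those 50 genes were read by 93 probes, of which 78 were tested, and each gene is given by its brightest tested probe. All 50 were well above background in the mutant and in the wild-type channel on all 4 arrays, so none entered through a single group. They stand among 13612 tested genes.

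RNA came from whole embryos, pooled, of 3 to 5 somites where that was possible, and no treatment is given for either genotype. Mutant and wild type were both C57BL/6J *FVB/NJ hybrids with between 50 and 90% FVB, and the labels do not say how many embryos a pool held. In the stage_matched set the pools were paired by somite count, and in the age_matched set by litter as far as possible, with up to 5 somites of difference allowed. Each set was 1 mutant pool and 1 wild-type pool, put on 2 two-colour arrays with the dyes exchanged: the mutant was in Cy5 on replicate 1 and in Cy3 on replicate 2. There were 4 arrays in all. The 2 arrays of a set share their RNA and were averaged, so n = 2 sets throughout.

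Cells meet DNA damage in layers. The kinases ATM and ATR sense breaks and stalled forks and pass the signal to CHEK1, CHEK2 and p53, and the repair pathways act on the lesion itself: homologous recombination and end joining on breaks, the Fanconi genes on crosslinks, excision repair on altered bases, and translesion polymerases on damage left in front of a fork. Much of this response works by modifying proteins that are already present, while p53 works by transcription and is known to raise a few repair genes, mostly from work in human cells. The mouse counterpart need not respond: induction by p53 is established for human DDB2 and was reported to be lacking for mouse Ddb2. Early mouse embryos divide fast and are known to be prone to p53-driven death. The question set for these genes was whether they move along with the p53 targets that are raised in this mutant.

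Each value below is a log2 ratio, mutant over wild type, and a gene's mean is over both sets, ± the SD of the 2 set means. Adjusted p values are from limma over all tested probes, with a threshold of 0.05. The share of probes well above background lay between 52.2 and 59.0% over channels and arrays, and no spot was saturated (0 on each array). All 14 genes of the early embryo list that had a probe, among them T, Meox1, Sox2 and Otx2, were tested. Across all tested probes, ratios correlated at r = 0.39 between the stage_matched arrays and at 0.16 between the age_matched arrays, which share their pools, and at 0.71 and 0.42 between arrays of different sets with the same dye orientation. Xist, the RNA of the inactive X, read -0.75 and -1.25 in the stage_matched set but 0.53 and 1.02 in the age_matched set, and the labels do not give the sexes in the pools. Their part in the ratios below was not tested.

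Many p53 targets rose, while Xrcc4 was the 1 repair gene that passed the test. Of 32 tested p53 targets outside repair, 15 rose and 0 fell, against 2.14% of all tested genes called higher and 2.78% called lower. That list was chosen with earlier results of these data known, so its rise serves as a yardstick and is not an independent test. Their median ratio was 0.40, and 31 of 32 ratios were positive. Of the 50 repair genes, 1 was called higher and 0 lower, or 2%, against the 4.92% of all tested genes called in either direction. The 0 for lower stands beside 8 repair genes with a negative ratio at an unadjusted p under 0.05 (limma; 11.2% of all tested genes) and 5 with a positive ratio (11.5%), and beside 2 called lower and 2 higher when the 4 arrays were fitted singly with a dye term, a fit that called 4.89% of all tested genes lower and 4.21% higher. The median of the repair genes was 0.02, equal to the 0.02 of all tested genes, with 28 ratios above and 22 below 0. With median centring in place of loess, 18 of 50 were above 0, and the median of all tested genes moved to -0.055. In whole-embryo RNA, fewer cells of a type and less RNA per cell cannot be told apart.

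**Figure D1:**
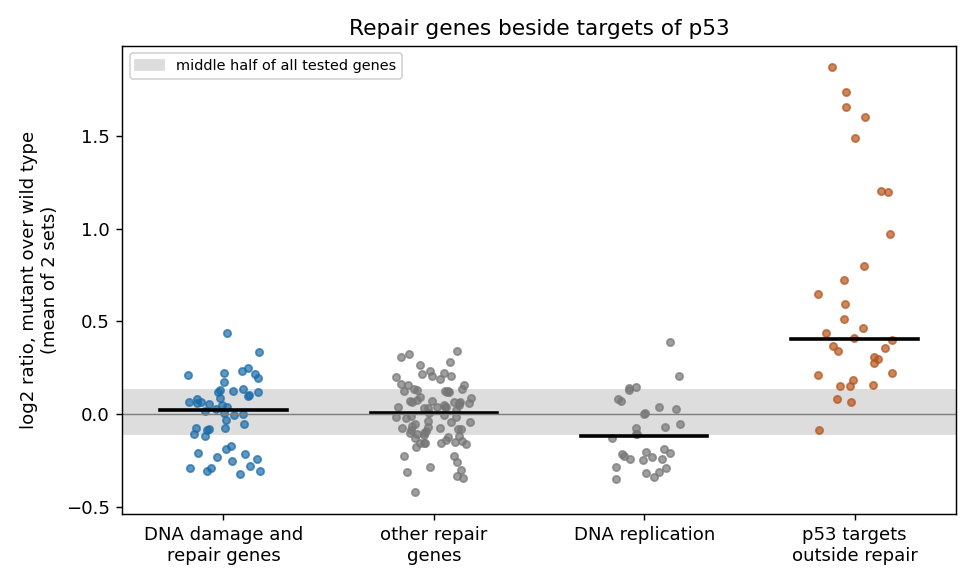
Each point is 1 gene's log2 ratio of mutant over wild type (mean of the 2 sets), black bars are medians, and the grey band holds the middle 50% of all tested genes. The repair genes and 85 other repair genes centre at 0.02 and 0.00, the DNA replication genes at -0.12 and the p53 targets at 0.40.

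The 5 p53 targets with the largest ratios give the upper end of that response. Ccng1 (cyclin G1) read 1.86 and 1.82 in the stage_matched set and 2.26 and 1.54 in the age_matched set, with a mean of 1.87 ± 0.04 (SD, n = 2; limma adjusted p = 0.000545). The means were 1.74 ± 0.01 for Eda2r, which encodes a TNF-type receptor, 1.65 ± 0.04 for Trp53inp1, 1.60 ± 0.40 for Pmaip1 (NOXA, a trigger of apoptosis) and 1.49 ± 0.43 for Phlda3, each called and positive on 4 of 4 arrays. The repair genes ran from -0.32 (Fanci) to 0.44 (Xrcc4). Xrcc4 was the 1 repair gene above the median of the p53 targets and stood near Mdm2, the ubiquitin ligase of p53, which was called at 0.40 ± 0.03 and is named after its values were seen (limma adjusted p = 0.0493). Trp53 itself read -0.48, -0.44, -0.07 and 0.52, a mean of -0.12 ± 0.48 (limma adjusted p = 0.706), and its arrays fall on both sides of 0. Btaf1 read 0.10 ± 0.03 (limma adjusted p = 0.555).

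The 95% intervals of the limma fit cover only the spread between the 2 sets, moderated over all probes. They reach 0.21 to 0.27 to either side of the mean. The choice of normalization and the dependence on single arrays are left out, so they do not bound the effect of the genotype. Ddb1, with an interval of -0.44 to 0.10, read 0.16 without age_matched replicate 1 and -0.51 without age_matched replicate 2. Each of these fits keeps 1 dye orientation in the age_matched set. Ddb1 averaged -0.57 on arrays with the mutant in Cy5 and 0.23 on those with it in Cy3, so dye and single array are mixed here. For all 50 genes the interval lay within a 2-fold change either way, and for 49 within a 1.5-fold change, Xrcc4 being the exception. For 42 of 50 the whole interval lay below 0.40, the median of the p53 targets. The other 8 were Atr, Nbn, Ogg1, Ercc5, Wrn, Rev1, Lig4 and Xrcc4. In absolute size, 41 of 50 means were under 0.25. These counts were not taken over all tested genes, whose middle 50% lay between -0.11 and 0.13. They therefore do not set the repair genes apart from other genes. These intervals are not adjusted for the number of genes.

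**Figure D2:**
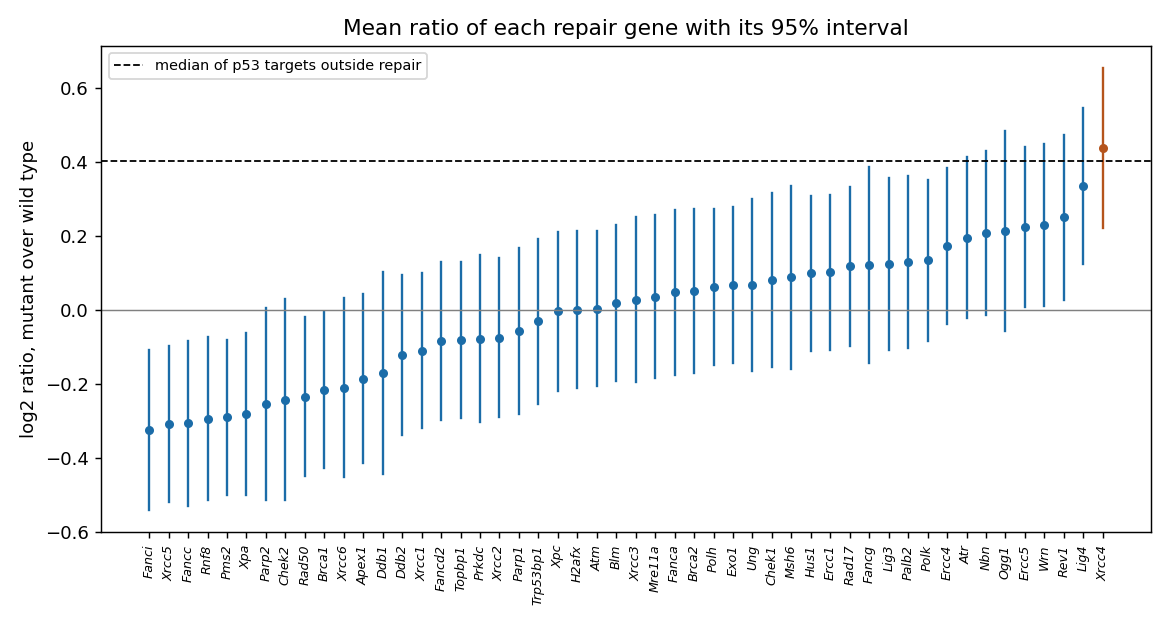
Each of the 50 repair genes is ordered by its mean log2 ratio of mutant over wild type, with the 95% interval of the limma fit as a vertical line; Xrcc4, the gene that passed the test, is in orange. The dashed line marks the median of the p53 targets outside repair (0.40), which lies above the whole interval of 42 genes. This count was not taken over all tested genes.

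Among end-joining genes, which seal broken DNA without a template, Xrcc4 rose. XRCC4 is the scaffold of DNA ligase IV. Its probe A_52_P609560 (chromosome 13, 89988804 to 89988863, mm9) read 0.75 and 0.27 in the stage_matched pair of arrays and 0.85 and -0.11 in the age_matched pair. Both arrays with the mutant in Cy5 were high, and 1 array with the mutant in Cy3 was below 0. The mean was 0.44 ± 0.10, a 1.35-fold higher level (95% interval 0.22 to 0.65; limma adjusted p = 0.0422), with a positive ratio on 3 of 4 arrays. A second tested probe of Xrcc4 read 0.31, 0.54, 0.25 and 0.15 and was positive on all 4, with a mean of 0.31 ± 0.16 that did not pass (limma adjusted p = 0.115). The call of Xrcc4 ended without stage_matched replicate 1 (0.32) and without age_matched replicate 1 (0.20), the arrays where it was highest. Leaving out 1 array leaves that set with 1 dye orientation, so a shift with dye is no longer averaged out. Calls over all tested genes were also fewer in these fits, so the loss is not particular to Xrcc4. The call also ended without background correction (0.41, limma adjusted p = 0.0792), with median centring (0.33, limma adjusted p = 0.197) and when dim probes were tested too (0.44, limma adjusted p = 0.0558).

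Lig4, the ligase that XRCC4 holds, had the next highest ratio of the 50 and was singled out after its values were seen. It read 0.31, 0.43, 0.42 and 0.18, a mean of 0.33 ± 0.05 (limma adjusted p = 0.0787). All 4 arrays were above 0, but a second tested probe of Lig4 read -0.08 ± 0.25, with 1 of its arrays above 0 and 3 below. The genes of the Ku subunits, which hold the broken ends, had means below 0 and were not called. Xrcc5 (Ku80) read -0.23, -0.31, -0.42 and -0.28, a tight range below 0, with a mean of -0.31 ± 0.05 (limma adjusted p = 0.0960). Xrcc6 (Ku70) stood at -0.21 ± 0.21 and Prkdc, the catalytic subunit of DNA-PK that Ku recruits, at -0.08 ± 0.15.

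The 7 genes of damage signalling gave 0 calls (limma; 0 also at an unadjusted p under 0.05) and a median of 0.08. For this group and the role groups below, all small, 0 calls is near the 4.92% of all tested genes called. Atr, the kinase of stalled forks, was highest, with 0.06, 0.18, 0.06 and 0.49 and a mean of 0.19 ± 0.11 (limma adjusted p = 0.269). Its other tested probes had lower means, 0.07 and 0.01. Chek2, the kinase downstream of ATM, was lowest, with -0.25, 0.20, -0.79 and -0.13 and a mean of -0.24 ± 0.31 (limma adjusted p = 0.270). Its arrays fall on both sides of 0, the lowest was the age_matched array with the mutant in Cy5, and its second tested probe read -0.06. Atm, the kinase of breaks, stood at 0.00 ± 0.01, although its single arrays ran from -0.33 to 0.35. Chek1, the effector of ATR, stood at 0.08 ± 0.19 with 0.46 and 0.31 where the mutant was in Cy5 and -0.03 and -0.42 where it was in Cy3. Rad17, which loads the checkpoint clamp, Hus1, a subunit of that clamp, and Topbp1, the activator of ATR, stood at 0.12, 0.10 and -0.08.

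At break ends and in the chromatin around them, 0 of 6 genes passed (limma; 2 at an unadjusted p under 0.05, Rad50 and Rnf8, both negative). Nbn, a subunit of the complex that first binds broken ends, was highest with 0.27, 0.33, -0.02 and 0.25, a mean of 0.21 ± 0.13 (limma adjusted p = 0.245). A second tested Nbn probe read 0.10, -0.04, -0.23 and -0.18, with a mean of -0.09, so the probes of Nbn differ in sign. Its partners Rad50 and Mre11a stood at -0.23 ± 0.09 and 0.03 ± 0.12. Rad50 averaged -0.49 on arrays with the mutant in Cy5 and 0.02 on those with it in Cy3, a difference that the SD between sets does not show. Rnf8, a ubiquitin ligase that marks damaged chromatin, was lowest, with -0.08, -0.33, -0.19 and -0.57, a mean of -0.29 ± 0.13 (limma adjusted p = 0.122). All 4 arrays of Rnf8 were below 0, and its second tested probe was below 0 on 3 of 4 arrays with a mean of -0.32. H2afx, the histone variant phosphorylated beside breaks, read -0.27, 0.36, -0.78 and 0.69, which cancelled to a mean of 0.00 ± 0.06. Its sign followed the dye and not the genotype. Trp53bp1, a reader of that chromatin, stood at -0.03.

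Homologous recombination and crosslink repair held 13 genes with a median of 0.03 and 0 calls (limma). At an unadjusted p under 0.05 (limma), 1 was positive and 3 were negative, against 11.5% and 11.2% of all tested genes. Fanci, whose product is monoubiquitinated at crosslinks together with FANCD2, read -0.59, -0.20, -0.47 and -0.04, a mean of -0.32 ± 0.10 (limma adjusted p = 0.0911). It was below 0 on all 4 arrays, and its partner Fancd2 stood at -0.08 ± 0.08. Brca1, which acts in the resection of broken ends, was also below 0 on 4 of 4 arrays, at -0.22 ± 0.06. Its other tested probe had a mean of -0.26, but its arrays read -0.71, 0.09, -0.66 and 0.25, with a sign that followed the dye. Brca2, which acts in strand exchange, and Palb2, the link between BRCA1 and BRCA2, stood at 0.05 and 0.13. Wrn, the helicase lost in Werner syndrome, was highest of the group, with 0.02, 0.27, 0.27 and 0.35, a mean of 0.23 ± 0.12 (limma adjusted p = 0.20). Its 4 arrays were above 0, and its second tested probe was above 0 on 3 of 4 with a mean of 0.14. Blm, the helicase lost in Bloom syndrome, and the nuclease Exo1 stood at 0.02 and 0.07, the recombination genes Xrcc2 and Xrcc3 at -0.08 and 0.03, and Fanca and Fancg of the Fanconi core complex at 0.05 and 0.12.

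Base excision and the repair of single-strand breaks gave 0 calls among 7 genes (limma; 0 also at an unadjusted p under 0.05). Ogg1, the glycosylase of oxidised guanine, was highest with -0.29, 0.29, 0.01 and 0.84, a mean of 0.21 ± 0.30 (limma adjusted p = 0.329). Its arrays fall on both sides of 0, 1 array stands well above the rest, and a second tested probe had a mean of 0.33. Parp2, a sensor of strand breaks, was lowest with -0.06, -0.07, -0.70 and -0.20, a mean of -0.26 ± 0.27 (limma adjusted p = 0.226). All 4 arrays of Parp2 were below 0, the age_matched set was the lower of the pair, and a second tested probe had a mean of -0.36. Apex1, the endonuclease of abasic sites, was likewise below 0 on all 4, at -0.19 ± 0.16. Parp1, the main break sensor, the scaffold Xrcc1, its ligase Lig3 and the uracil glycosylase Ung stood at -0.06, -0.11, 0.12 and 0.07.

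Mismatch repair was represented by Msh6, which recognises mispairs, and Pms2, the nuclease subunit that acts after it. Msh6 read -0.29, 0.13, -0.36 and 0.87, a mean of 0.09 ± 0.23 (limma adjusted p = 0.688), with a sign that followed the dye. Pms2 read -0.42, -0.12, -0.26 and -0.37, a mean of -0.29 ± 0.03 (limma adjusted p = 0.111). Its 4 arrays were all below 0 and the sets differed little, but neither gene passed (0 called by limma; 1 at an unadjusted p under 0.05, Pms2).

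In nucleotide excision repair, which removes ultraviolet and other bulky damage, 0 of 7 genes passed (limma; 2 at an unadjusted p under 0.05, Ercc5 higher and Xpa lower). Xpa, which verifies the lesion, was lowest with -0.32, -0.08, -0.01 and -0.72, a mean of -0.28 ± 0.11 (limma adjusted p = 0.132). Its arrays were all below 0 but spread widely. The nuclease genes Ercc1, Ercc4 (XPF) and Ercc5 (XPG) were above 0 on every array, at 0.10, 0.17 and 0.22. Ddb1, an adaptor of the CUL4 ubiquitin ligase and the only one of these genes on chromosome 19, where Btaf1 also lies, stood at -0.17 ± 0.31, with single arrays from -1.06 to 0.28.

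The translesion polymerases had positive means, with 0 of 3 called (limma; 1 at an unadjusted p under 0.05). Rev1, the scaffold of translesion synthesis, read 0.05, 0.26, 0.40 and 0.29, a mean of 0.25 ± 0.14 (limma adjusted p = 0.175), and its second tested probe read 0.27. Polh, the polymerase that bypasses ultraviolet damage, was lowest of the group with -0.10, 0.26, -0.14 and 0.23, a mean of 0.06 ± 0.03 (limma adjusted p = 0.744), and its second tested probe read -0.06.

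**Figure D3:**
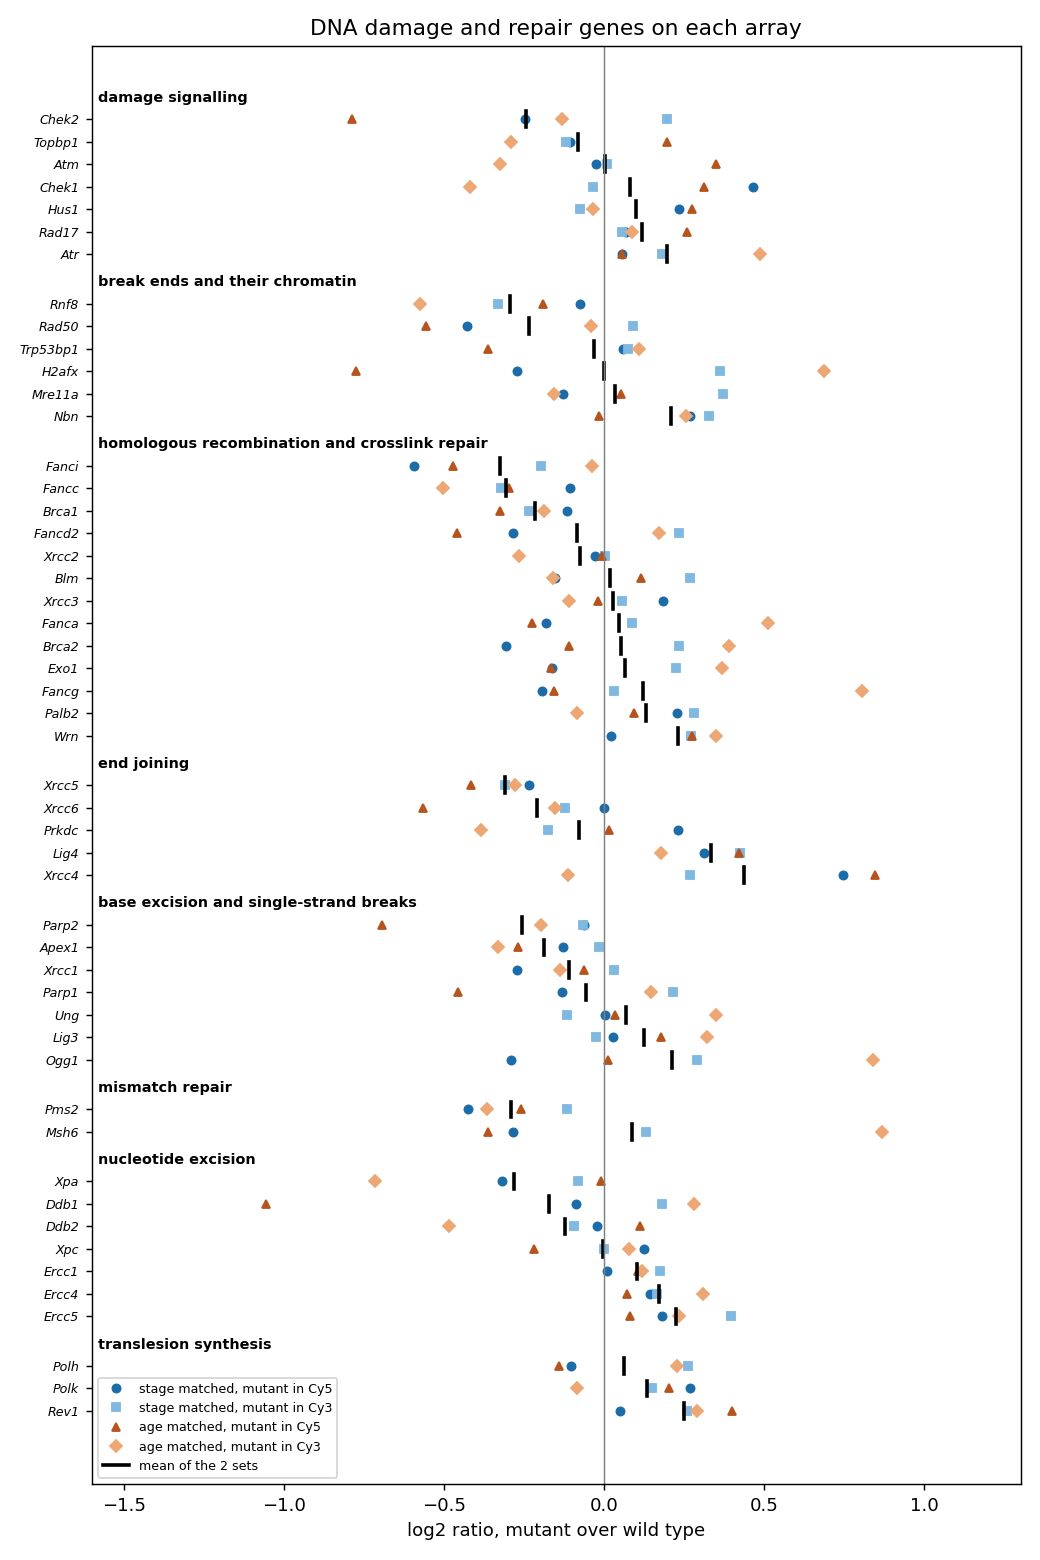
Log2 ratios of mutant over wild type for the 50 repair genes, grouped by role, with 1 symbol for each of the 4 arrays and a black bar for the mean of the 2 sets. Xrcc4 reads 0.75 and 0.85 where the mutant was in Cy5 and 0.27 and -0.11 where it was in Cy3; H2afx and Msh6 change sign with the dye.

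Repair genes listed as targets of p53 were read as a group of their own, a list that rests on general knowledge, partly of the human genes. These 6 genes, Ddb2, Xpc, Polh, Polk, Ercc5 and Fancc, gave 0 calls (limma; 1 positive and 1 negative at an unadjusted p under 0.05). Over all tested genes 4.92% were called, and 11.5% were positive and 11.2% negative at that unadjusted p (limma). With 6 genes, 0 calls is near that share and does not set them apart. The median of the 6 was 0.03, with 3 ratios on either side of 0. Ddb2, which finds ultraviolet lesions in chromatin, read -0.02, -0.09, 0.11 and -0.48, a mean of -0.12 ± 0.09 (95% interval -0.34 to 0.09; limma adjusted p = 0.491). Xpc, which senses the distorted helix, read 0.12, 0.00, -0.22 and 0.08, a mean just below 0 at -0.0046 ± 0.09 (95% interval -0.22 to 0.21; limma adjusted p = 0.983), and its second tested probe -0.12. Neither was shifted beyond the spread of its arrays. Polk, a polymerase that bypasses bulky adducts, read 0.27, 0.15, 0.20 and -0.08, a mean of 0.13 ± 0.11 (95% interval -0.08 to 0.35; limma adjusted p = 0.450). Ercc5 read 0.18, 0.40, 0.08 and 0.23, a mean of 0.22 ± 0.09 (95% interval 0.01 to 0.44; limma adjusted p = 0.206). It was the only one of the 6 above 0 on all 4 arrays, while Fancc, of the Fanconi core complex, was below 0 on all 4, at -0.11, -0.32, -0.30 and -0.50 with a mean of -0.31 ± 0.13 (limma adjusted p = 0.112). Polh is given above. The remaining 44 repair genes had a median of 0.02, with 1 called higher.

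Sequence upstream of the starts is shown for Xrcc4, which passed the test, for Polk and Fanca, which carry a match to the p53 half-site consensus, and for Ccng1, the most raised p53 target. The lines give the 250 bases before an annotated start (RefSeq, GRCm38.p6), 5′ to 3′ on the strand of the gene, with matches in capitals.
Xrcc4 (chr13:90089609-90089858, minus strand): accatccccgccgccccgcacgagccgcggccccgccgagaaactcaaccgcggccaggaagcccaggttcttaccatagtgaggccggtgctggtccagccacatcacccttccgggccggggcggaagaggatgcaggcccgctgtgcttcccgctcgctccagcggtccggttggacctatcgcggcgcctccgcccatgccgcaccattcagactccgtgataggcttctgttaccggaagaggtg
Polk, first start (chr13:96542580-96542829, minus strand): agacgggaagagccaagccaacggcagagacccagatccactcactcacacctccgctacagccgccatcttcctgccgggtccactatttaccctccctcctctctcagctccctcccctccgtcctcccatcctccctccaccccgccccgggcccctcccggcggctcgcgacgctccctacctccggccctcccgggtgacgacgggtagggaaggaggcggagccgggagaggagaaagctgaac
Polk, second start (chr13:96519188-96519437, minus strand): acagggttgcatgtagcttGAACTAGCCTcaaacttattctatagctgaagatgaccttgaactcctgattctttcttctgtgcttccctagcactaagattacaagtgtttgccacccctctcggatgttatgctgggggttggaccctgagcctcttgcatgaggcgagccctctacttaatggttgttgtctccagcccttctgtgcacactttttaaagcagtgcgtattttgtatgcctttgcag
Fanca (chr8:123318577-123318826, minus strand): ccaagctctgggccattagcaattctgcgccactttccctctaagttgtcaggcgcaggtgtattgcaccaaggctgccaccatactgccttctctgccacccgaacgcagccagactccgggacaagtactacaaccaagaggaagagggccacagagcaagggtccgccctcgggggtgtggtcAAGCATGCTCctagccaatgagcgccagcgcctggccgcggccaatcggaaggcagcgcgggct
Ccng1 (chr11:40755287-40755536, minus strand): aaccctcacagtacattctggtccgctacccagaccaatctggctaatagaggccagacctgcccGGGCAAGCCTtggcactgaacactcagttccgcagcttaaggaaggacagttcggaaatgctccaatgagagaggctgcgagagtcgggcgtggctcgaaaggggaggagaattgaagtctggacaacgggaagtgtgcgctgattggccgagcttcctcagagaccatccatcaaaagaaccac
The half-site consensus is a palindrome of 10 bases and was searched on both strands at once. Of the 41 repair genes with an entry in the table, 3 had a match (Fanca, Fancg and Polk), or 7.32%, beside 8.2% of all 27025 genes in it. Among the p53 targets outside repair, 9 of 30 had a match. Polk had its match before the second of its starts and none before the first. On the minus strand the second start lies downstream of the first, so the window with the match falls inside the gene. The Fanca match is centred on a CATG core. A match is a string of letters and not a bound site. Binding of p53 can lie in introns or farther upstream, and these windows cover little of either. Mean ratios of the 3 genes with a match were 0.05, 0.12 and 0.13, none of them called.

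Other genes of the response were read from fixed lists. Over all tested genes 4.92% were called, and 11.5% were positive and 11.2% negative at an unadjusted p under 0.05 (limma). Of 85 other tested repair genes, among them Lig1, Fen1, Rpa1 and the remaining Fanconi genes, 0 were called in either direction (limma; 7 positive and 8 negative at an unadjusted p under 0.05, and 2 higher and 1 lower with the 4 arrays fitted singly). Their median was 0.00, with 43 positive and 42 negative ratios between -0.42 and 0.34. Of 7 tested genes that p53 is known to raise around DNA precursors and checkpoint recovery, 0 were called (limma; 1 positive and 1 negative at an unadjusted p under 0.05, and 1 lower with the 4 arrays fitted singly), with a median of 0.06. Rrm2b was on the array and was not tested because its signal was too low. The 10 repair genes driven by E2F at the start of S phase, Brca1, Chek1, Exo1 and Msh6 among them, gave 0 calls (limma; 2 negative at an unadjusted p under 0.05, and 1 lower with the 4 arrays fitted singly) and a median of 0.05, and the 32 DNA replication genes gave 0 calls (limma; 1 positive and 10 negative at an unadjusted p under 0.05, and 3 lower with the 4 arrays fitted singly) and a median of -0.12.

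The repair genes shared the dye effect of these arrays, at shares near those of all tested genes. In 13 of 50 repair genes the sign of the ratio followed the dye on all 4 arrays, against 21% of all tested genes, and in 10 of these 13 the mutant read lower when it was in Cy5. In 24 of 50 the average shift with dye, taken as 0.5 of the difference between orientations, exceeded the mean ratio in size, against 46.4% of all tested genes. H2afx had the largest such shift at -0.52, then Msh6 at -0.41 and Ddb1 at -0.40, and Xrcc4, the called gene, came next at 0.36. A sign kept on all 4 arrays is thus the more demanding description: 8 repair genes were above 0 on every array and 9 below, or 16% and 18%, against 14.9% and 13.6% of all tested genes. Those above were Atr, Rad17, Wrn, Lig4, Ercc1, Ercc4, Ercc5 and Rev1. Those below were Rnf8, Brca1, Fancc, Fanci, Xrcc5, Parp2, Apex1, Pms2 and Xpa. By contrast, 25 of 32 p53 targets were above 0 on every array.

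The sets of pools gave no called difference for these genes. The age_matched minus stage_matched difference was called for 0 of 50 repair genes (limma; 5 at an unadjusted p under 0.05), against 2.09% of all tested genes, and the smallest adjusted p was 0.228 (Chek2). The error of this difference is that between arrays of exchanged dye, so it is technical. Differences ran from -0.43 (Chek2) to 0.43 (Ogg1) with an SE of 0.17 to 0.18. Both set means had 1 sign in 32 of 50 genes, against 68.2% of all tested genes. The median of the repair genes was 0.01 for stage_matched and -0.05 for age_matched pools, beside 0.34 and 0.48 for the p53 targets. Trp53 differed by 0.68 between the sets (limma adjusted p = 0.0105), with set means on opposite sides of 0.

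**Figure D4:**
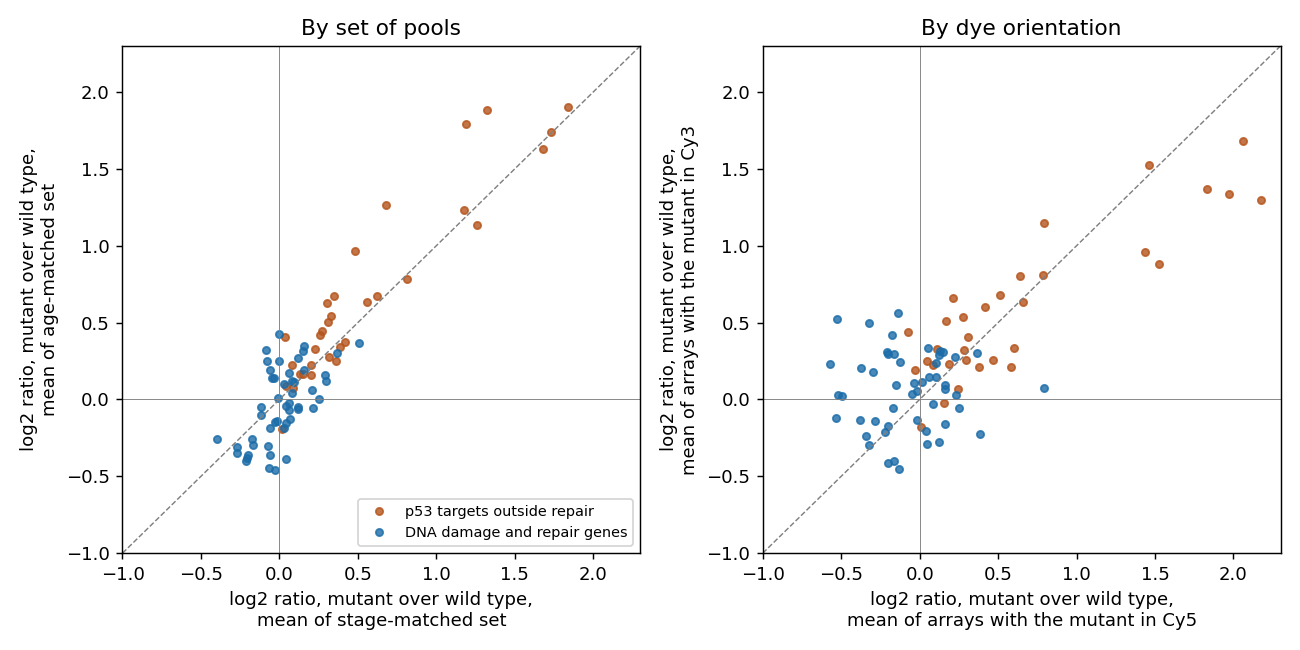
Each point is 1 gene, with the mean log2 ratio of mutant over wild type in the stage_matched against the age_matched set (left) and on arrays with the mutant in Cy5 against Cy3 (right); the dashed line marks equality. Most p53 targets (orange; 25 of 32 above 0 on every array) lie up and to the right, while the repair genes (blue) lie around 0, and 13 of 50 have opposite signs by dye on all 4 arrays.

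Probes of the same gene mostly agreed in sign, though some differed by more than most mean ratios. Of 24 repair genes with 2 or more tested probes, 18 had 1 sign over their probes. Atm, Hus1, Lig4, Mre11a, Nbn and Polh did not. The widest gap was 0.41 (Lig4), then 0.39 (Hus1) and 0.38 (Atm). The brightest Hus1 probe read 0.10, and its other tested probes read -0.08 and -0.30. The second Atm probe read -0.37 where the brightest read 0.00, and did not pass either (limma adjusted p = 0.0596).

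Marker genes of some tissues of the embryo were lower in the mutant. Genes of visceral endoderm and yolk sac had a median of -0.72, with 15 of 23 called lower and array medians from -0.84 to -0.63. Genes of heart muscle had 13 of 20 called lower and array medians from -1.40 to -0.50, and genes of primitive red cells had 4 of 11 called lower. Of the markers of maternal decidua and adult blood, 6 of 11 on the array were tested and 0 called (limma; 0 at an unadjusted p under 0.05), and Prl3c1, Lyz1, Ptprc, S100a8 and S100a9 were not well above background. Of 29 mitosis genes 3 fell, with a median of -0.09. Of the 14 tested genes of the early embryo list, 3 were called higher and 2 lower. Over all tested genes 2.78% were called lower and 2.14% higher. Whether these shifts touch the ratios of repair genes was not tested.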

How the data were processed

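Two-colour Agilent arrays of mutant against wild-type embryo pools were read. The spot and background intensity columns are scanner brightness per dye, deposited without normalization, per the file headers. A log10 ratio column holds Cy5 over Cy3 after the scanning software's background subtraction, detrending and dye normalization, per the file headers, and the authors' deposited value table is that log10 ratio as mutant over wild type (largest deviation 5e-06, 0 columns left over). The submitters' processing notes name Feature Extraction 9.5.3, and the headers 10.5.1.1.

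Outlier spots were left out in limma 3.58.1 (R 4.3.3), background was corrected by normexp (offset 50), and loess was run within arrays with control spots at weight 0. Signs were turned on dye-exchanged arrays. Of 41174 probes, 21940 were tested, being well above background (at least 0.5 of a probe's spots) on all 4 arrays in 1 genotype. A two-sided limma test compared set means with 0 (1 residual and 7.12 prior degrees of freedom), with p values adjusted over tested probes by Benjamini-Hochberg. The difference between sets used 4 arrays with terms for set and dye. The scripts were tested on simulated data. Genes are GeneName entries of the files, each read by its brightest tested probe, which also gives the probe positions (mm9). By rule, array values were given for called genes, for the 6 listed p53 targets, for the highest and lowest gene of each role and for Trp53 and the highest p53 target. Those of Lig4, Chek1, H2afx, Xist and of second probes were added after they were seen. The genes and lists were chosen with earlier results of these data known. Nothing says that the pools of the sets came from separate embryos, so p values measure the spread between these samples. The number of pools, 1 of each genotype in each of 2 sets, limits the precision.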

Additional observations from a re-analysis of the deposited data

How the results depend on the processing

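The call of Xrcc4 was the 1 call in the mutant against wild type comparison and was not stable. Where 1 array was left out, its set kept 1 dye orientation, so a shift with dye in that set was not averaged out. The number of repair genes called higher was 0 without background correction, with median centring and with dim probes tested as well, and 0 to 1 when an array was left out (0 without either array that had the mutant in Cy5). With the 4 arrays fitted singly with a dye term, where technical swaps count as samples, it was 2 higher and 2 lower (Lig4, Fanci and Xrcc5 joined Xrcc4). It was 1 with processed signals, with both channels above background and with the mean over probes. The number called lower was 0 under every other setting run, and no member turned to a call in the opposite direction (0). The median of the repair genes was -0.053 with median centring, where that of all tested genes was -0.055, and -0.030 to 0.071 when an array was left out. Under the same settings the median of the p53 targets ran from 0.30 to 0.50. The difference between the sets was called for 0 members with every signal and normalization tried. Over all tested genes, 291 higher and 379 lower became 97 and 438 with median centring, 17 and 35 without background correction, 168 and 229 with dim probes tested, 573 and 665 with the 4 arrays fitted singly, and 7 and 11 without age_matched replicate 1. All 50 genes were well above background in both genotypes. The labels number no replicates. The ratio within an array already pairs mutant with wild type, and the test of set means against 0 rests on these pairs. No further pairing was possible because each set holds 1 pool of each genotype.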
